A study of Danio rerio with 12 samples.

Results

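The injured ventricular apex of nkx2.5-/- zebrafish (MT7, 2 libraries) was compared with the injured apex of transgenic wild-type fish (TG7, 2 libraries), the 4 libraries being chosen by their sample titles out of the 12 in the series. The files list 38049 genes, and the 19014 of them with enough reads were tested. Tg(hsp70l:nkx2.5-EGFP), the rescue construct present in both groups, places a fusion of Nkx2.5 with a green fluorescent protein behind the heat-inducible hsp70l promoter, and all fish were heat-shocked once as embryos, during heart tube formation. MT7 fish are in addition homozygous for the mutant allele nkx2.5vu179, which without that pulse is lethal early in life. The fish were adults of 3 to 18 months, each library is a pool of 6 apices, and the apex was taken 7 days post amputation (dpa) of the ventricular tip. The same genotypes without injury (MT0 and TG0, 2 libraries each) and injured non-transgenic wild-type fish (WT7, 2 libraries, heat-shocked and without the transgene) are used where they bear on a difference. According to the study, amputation by itself also switches the transgene on for a time, without heat shock. The comparison therefore sets nkx2.5 mutant against wild-type fish in the wounded heart, with the rescue construct present on both sides. Other differences between these lines cannot be told apart from loss of the endogenous gene in this design.

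Nkx2.5 is a homeodomain transcription factor of the heart-forming lineage that binds DNA with partners of the Gata and T-box families and holds cardiomyocytes to their chamber identity. Zebrafish replace an amputated ventricular tip: cardiomyocytes near the wound loosen their sarcomeres and divide, while epicardium, endocardium and macrophages supply matrix, growth factors and clearance of debris. BMP, Fgf, Wnt and neuregulin signals are among those known to steer this process.

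Library totals were 18778027 and 21690526 reads in MT7 and 16732382 and 24544150 in TG7. Levels are given as CPM, the reads of a gene per 1e+06 reads of the library, scaled by the trimmed mean of M values (TMM). Cardiac markers were high in all 4 libraries, as in a heart apex, but their summed level (5 genes of the marker list were found, myl7, vmhc, tnnt2a, tnni1b and cmlc1) was 19300 and 27612 CPM in MT7 against 40153 and 45240 CPM in TG7. None of these 5 genes was called, with edgeR adjusted p from 0.0813 to 0.333. Without injury their sum was also lower in the mutant, at 46605 and 32653 CPM in MT0 against 62753 and 67196 CPM in TG0. The 2 atrial cardiomyocyte markers, myh6 and nppa, summed to 9754 and 4836 CPM in MT7 and to 4949 and 5175 CPM in TG7, so that these overlapped. Red blood cell markers (4 genes, among them the globins hbaa1 and ba1) summed to 9274 and 4954 CPM in MT7 and 12257 and 14534 CPM in TG7. Endothelial markers (5 genes) lay at 396 and 529 CPM against 476 and 530 CPM, and macrophage markers (4 genes) at 260 and 228 CPM against 267 and 164 CPM, so that these overlapped. Epicardial markers (4 genes) summed to 555 and 481 CPM in MT7 against 390 and 386.5 CPM in TG7. Most of this was aldh1a2, at 391 and 331 against 226 and 233 CPM, which was not called. tbx18 differed by 0.20 on the log2 scale, and tcf21 and wt1b went the other way, at -0.13 and -0.25. For smooth muscle (4 genes) the sums were 756 and 1042 against 668 and 579.5 CPM. For pan-leukocyte markers (3 genes) they were 141.5 and 145 against 116 and 86.3 CPM. Fibroblast sums (3 genes) were 2332 and 2303 against 2953 and 3079 CPM. The lower sum came mostly from postnb, at 1027 and 949 against 1565 and 1712 CPM, which was not called. col1a2 and pdgfra differed by -0.05 and 0.09 on the log2 scale. Skeletal muscle sums (5 genes) were 1628 and 1942 against 5058 and 4776 CPM, nearly all of it ckma. ckma was called lower (log2 fold change -1.52 ± 0.23 SE, edgeR adjusted p = 0.00879). TG7 replicate 2 held 4774 CPM of ckma with 0.491 CPM of mylpfa, a fast skeletal muscle gene, so the sum did not follow mylpfa. The other tested markers, mylpfa, myhz2 and pvalb2, had positive log2 fold changes (1.94, 1.79 and 1.21). Their levels were carried by 1 library of each group. In bulk tissue, fewer cells of a type and less RNA per cell cannot be told apart. MT7 replicate 2 held 1998 CPM of vtg1, the yolk protein precursor made by liver, against 27.9 CPM in MT7 replicate 1 and 2.28 and 107 CPM in TG7. MT7 replicate 1 held 158 CPM of krt5, a skin keratin, against 1.77 to 6.03 CPM in the other 3. The variation between replicates, as a biological coefficient of variation, was 0.27 in MT7 and 0.15 in TG7.

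nkx2.5 itself was measured at 205 and 311 CPM in MT7 and at 166 and 186 CPM in TG7. The mutant libraries were the higher ones, yet the difference did not pass the test (log2 fold change 0.55 ± 0.20 SE, edgeR adjusted p = 0.187). This count does not check the genotype: reads from the nkx2.5 coding part of the transgene and from a mutant transcript that is still made would be assigned to the same gene. hsp70l, the gene whose promoter drives the transgene, was at 8.2 and 7 CPM in MT7 and at 5.81 and 7.53 CPM in TG7. Its levels overlapped between the groups. Atrial myosin heavy chain (myh6) was at 2595 and 1133 CPM in MT7 and at 1045 and 998 CPM in TG7 (log2 fold change 0.87 ± 0.74 SE, edgeR adjusted p = 0.63). Both transgenic groups were far above WT7, where myh6 stood at 2.72 and 14.05 CPM. WT7 was also below uninjured non-transgenic wild-type fish, which had 85.6 and 348 CPM of myh6. TG0 had 438 and 864 CPM, so replicates of the uninjured controls lay far apart. Ventricular myosin heavy chain (vmhc) was at 796 and 556 CPM against 817 and 1114 CPM (log2 fold change -0.51 ± 0.24 SE, edgeR adjusted p = 0.333).

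Across all genes, 528 differed between MT7 and TG7 (2.78% of those tested), taking as called a gene with an edgeR adjusted p below 0.05 and an absolute log2 fold change above 0.5. Of these, 141 were higher in the mutant (0.742% of the genes tested) and 387 were lower (2.04%). Among them, 82 of the higher and 282 of the lower genes differed by more than 2-fold. Both MT7 libraries lay beyond both TG7 libraries for every one of the 528, but the same was true of 52.8% of all genes tested. Separation of 2 against 2 libraries therefore says little by itself. Where it holds, leaving out 1 library cannot turn the sign of a difference, so a kept direction is no further support. The number of calls rested on each library. Without MT7 replicate 1, 79 genes were higher and 123 lower. Without MT7 replicate 2 the numbers were 340 and 327, in a fit that also tested other genes and in which 164 of the 340 were among the 19014, without TG7 replicate 1 they were 11 and 109, and without TG7 replicate 2 they were 16 and 96. All 528 kept their direction in each of these 4 fits, and 79 of them (11 higher, 68 lower) were called in all 4. DESeq2 called 418 higher and 663 lower, so that 38.7% of its calls were higher against 26.7% here. With the 4 compared libraries fitted alone, 156 genes were higher and 274 lower, 294 of them among the 528.

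**Figure D1:**
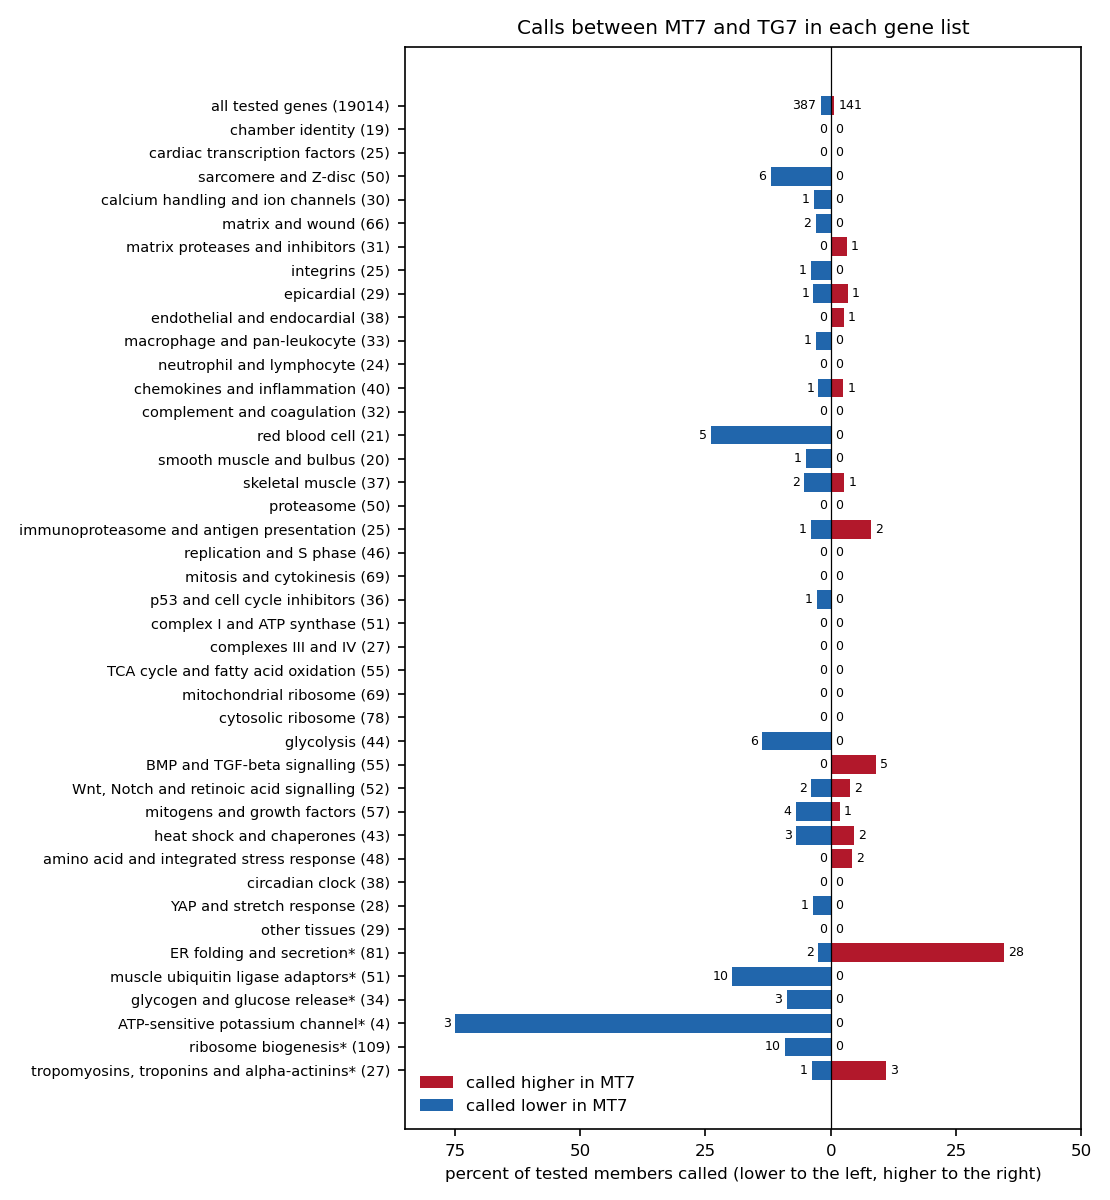
Percent of the tested members of each gene list that were called higher (right, red) or lower (left, blue) in MT7 than in TG7, with the number of called genes at the end of each bar and the number tested in brackets; lists marked with an asterisk were drawn up after values had been seen. The longest bars on the right belong to the endoplasmic reticulum list (28 of 81) and on the left, among lists of 20 genes or more, to the red blood cell list (5 of 21) and the ubiquitin ligase adaptors (10 of 51). The endoplasmic reticulum and adaptor lists carry the asterisk, so their rank is partly built in.

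The BMP pathway genes that passed the test were all higher in the injured mutant apex, and 3 of these 5 encode antagonists of the pathway. Of 55 tested genes of BMP and TGF-beta signalling, 5 were called higher and 0 lower (9.09% called, against 2.78% of all genes), with a median log2 fold change of 0.19 against -0.01 over all genes. fsta, which encodes follistatin, a secreted protein that binds activins and BMPs, was at 33.4 and 27.9 CPM in MT7 and at 0.513 and 0.327 CPM in TG7. This was the largest rise among the genes with an established name and a mean level that met the naming rule: 73.9-fold, a log2 fold change of 6.21 ± 0.82 SE (edgeR adjusted p = 0.00455). WT7 was as low as TG7, at 0.34 and 0.398 CPM. nog3, a noggin that sequesters BMP ligands, was at 6.13 and 6.35 CPM in MT7 and at 0.74 and 0.695 CPM in TG7 (log2 fold change 3.11 ± 0.42 SE, edgeR adjusted p = 0.00484). bambia, a pseudoreceptor that dampens BMP and TGF-beta receptors and is itself a transcriptional target of BMP signals, was at 81.2 and 69.4 CPM against 19.6 and 24 CPM. Its rise of 1.79 ± 0.19 SE on the log2 scale was called in all 4 fits that left out a library. fsta and nog3 kept their size in those fits (5.88 to 6.51 and 3.06 to 3.15) but were called in 2 of the 4, those that kept both TG7 libraries. The list held 3 called genes without MT7 replicate 1, 4 without MT7 replicate 2 and 1 without either TG7 library.

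Among the ligands, bmp4 was at 13.2 and 13.6 CPM in MT7 and at 4.78 and 6.18 CPM in TG7 (log2 fold change 1.29 ± 0.25 SE, edgeR adjusted p = 0.0268). bmp16, a ligand related to Bmp2 and Bmp4, was at 59.6 and 73.6 CPM against 30.1 and 32.6 CPM (log2 fold change 1.09 ± 0.21 SE). The bmp4 difference was between 1.11 and 1.48 when a library was left out, and neither ligand was called in any of these fits. Of the Id genes, which BMP signals commonly switch on, none was called: id1 differed by 0.36, id2a by 0.95 and id3 by 0.64 on the log2 scale, with edgeR adjusted p of 0.435, 0.0829 and 0.0549.

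Wnt pathway genes moved in both directions. Of 52 tested genes of Wnt, Notch and retinoic acid signalling, 2 were higher and 2 lower (7.69% called, against 2.78% of all genes). wnt11r, a Wnt ligand of the cell polarity branch that acts in heart muscle during development, was at 56.2 and 63.8 CPM in MT7 and at 18.7 and 24.2 CPM in TG7 (log2 fold change 1.48 ± 0.16 SE, edgeR adjusted p = 0.00174). WT7, at 22.6 and 21.6 CPM, lay with the transgenic controls. sfrp1b, a secreted Wnt antagonist, was at 14.5 and 20.1 CPM against 4.61 and 3.44 CPM (log2 fold change 2.11 ± 0.45 SE). wnt2bb fell, from 6.55 and 6.3 CPM in TG7 to 2.28 and 2.33 CPM in MT7, and dhrs3b, a retinaldehyde reductase, fell from 19.4 and 19.1 to 8.61 and 9.69 CPM. Of these, wnt11r was called in all 4 fits with a library left out, dhrs3b in 1, and sfrp1b and wnt2bb in 0.

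Of 57 tested mitogens, growth factors and their receptors and binding proteins, 1 was higher and 4 were lower (8.77% called, against 2.78% of all genes). fgf3 was at 1.04 and 1.93 CPM in MT7 and at 14.5 and 14.5 CPM in TG7, a 9.71-fold decrease (log2 fold change -3.28 ± 0.33 SE, edgeR adjusted p = 0.00126). fgf7 was at 0.248 and 0.161 CPM against 2.9 and 3.48 CPM (log2 fold change -3.93 ± 0.49 SE, edgeR adjusted p = 0.00372). Both ligands were low in the mutant and both were called whichever library was left out, and WT7 resembled TG7, with 21 and 22.5 CPM of fgf3 and 2.04 and 3.23 CPM of fgf7. etv5b, a transcription factor gene that Fgf signals switch on in zebrafish, did not fall with them: it was at 75.6 and 112 CPM in MT7 and at 34.1 and 37.7 CPM in TG7 (log2 fold change 1.39 ± 0.28 SE, edgeR adjusted p = 0.0272). The related etv4, at 65.1 and 60.6 CPM against 36.4 and 33.3 CPM, did not pass (edgeR adjusted p = 0.0891), and dusp6, another Fgf target, overlapped at 359 and 219 CPM against 148 and 371 CPM. nrg2a, a neuregulin, was at 20 and 16.6 CPM against 9.62 and 10.8 CPM. The insulin-like growth factor binding proteins igfbp1b and igfbp3 were lower, at -2.74 and -0.82 on the log2 scale. etv5b, nrg2a and igfbp1b were each called in 1 of the 4 fits with a library left out and igfbp3 in 0, and the count of lower genes was 2 without MT7 replicate 1, TG7 replicate 1 or TG7 replicate 2.

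**Figure D2:**
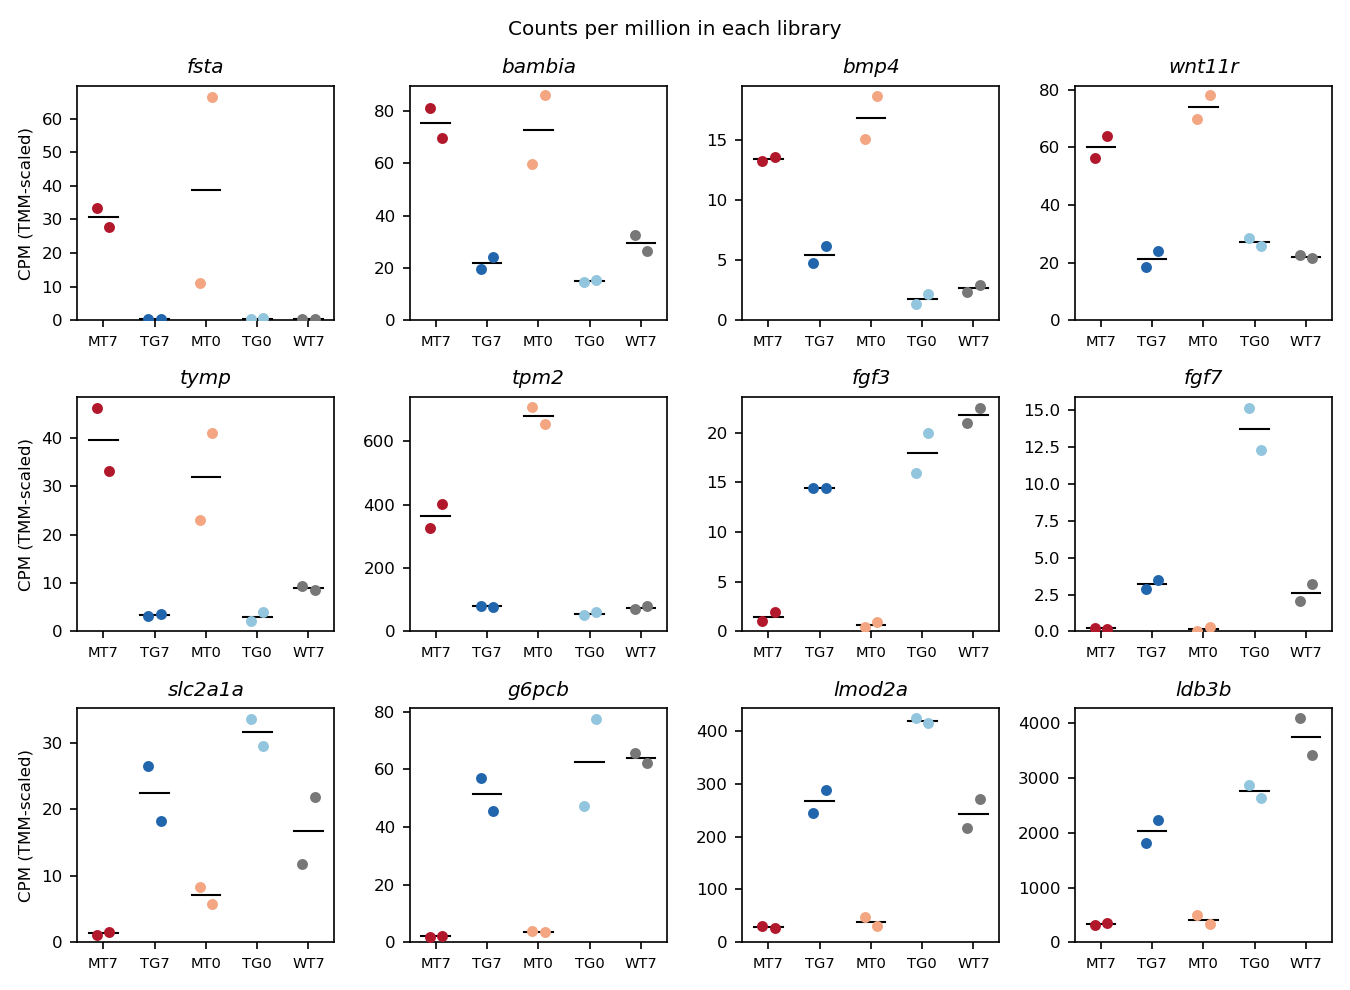
CPM (TMM-scaled, linear axes from 0) of 12 genes in the 2 libraries each of MT7, TG7, MT0, TG0 and WT7; points are libraries and black lines are means of 2. fsta, bambia, bmp4, wnt11r, tymp and tpm2 were higher in both mutant groups than in TG7, TG0 and WT7, and fgf3, fgf7, slc2a1a, g6pcb, lmod2a and ldb3b were lower.

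The called genes of the sarcomere and Z-disc list were all lower in the mutant. The largest differences were in genes of the Z-disc and of thin filament assembly. Of 50 tested, 0 were called higher and 6 lower (12% called, against 2.78% of all genes, 0.742% higher and 2.04% lower). The median log2 fold change was -0.54, with 39 of 50 values negative. lmod2a, a leiomodin that nucleates actin thin filaments, was at 30.6 and 27.4 CPM in MT7 and at 245 and 288 CPM in TG7, a 9.2-fold decrease (log2 fold change -3.20 ± 0.22 SE, edgeR adjusted p = 0.000129). ldb3b, a Z-disc scaffold protein, was at 314 and 360 CPM against 1817 and 2233 CPM (log2 fold change -2.59 ± 0.23 SE). synpo2la, an actin-binding protein of the Z-disc, was at 1.32 and 3.02 CPM against 20.4 and 22.2 CPM (log2 fold change -3.29 ± 0.41 SE). These 3 genes were called whichever library was left out. The other 3 were tnnc1a, the calcium-binding troponin of the heart (-1.51), synpo2lb (-0.98) and popdc2, a membrane protein of the Popeye family (-0.97), each called in 1 of those fits. The count of lower genes was 8 without MT7 replicate 2 and 3 without any 1 of the other 3 libraries. The summed level of the 5 cardiomyocyte markers moved in the same direction, and its part in these differences was not tested.

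Some sarcomere genes outside that list went the other way. Among 27 tested tropomyosins, troponins and alpha-actinins, a list drawn up after values had been seen, 3 were higher and 1 lower (14.8% called, against 2.78% of all genes). The lower gene was tnnc1a, already given above with the sarcomere list. The median log2 fold change was 0.527 with all libraries and -0.975 without MT7 replicate 2. tpm2, a tropomyosin, was at 327 and 402 CPM in MT7 and at 81.7 and 78 CPM in TG7, a 4.57-fold increase (log2 fold change 2.19 ± 0.15 SE, edgeR adjusted p = 0.000129) that was called whichever library was left out. tnni1d, a troponin I gene, was at 44.5 and 25 CPM against 5.69 and 5.68 CPM, and actn3b, an alpha-actinin, at 6.25 and 13.5 CPM against 2.79 and 2.37 CPM. myoz1a, which encodes a Z-disc protein that binds calcineurin and alpha-actinin, was at 12.5 and 29.9 CPM against 3.59 and 3.56 CPM. The last 3 were each called in 1 of the 4 fits with a library left out. The fast skeletal muscle genes mylpfa, myhz2 and pvalb2 were carried by 1 library of each group: mylpfa was at 1.08 and 81.8 CPM in MT7 and at 21.4 and 0.491 CPM in TG7. The part of skeletal muscle RNA in the differences of actn3b and myoz1a was not tested.

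In a list of 51 muscle ubiquitin ligases and their substrate adaptors, drawn up after values had been seen, 0 were higher and 10 lower. This was 19.6% called, against 2.78% of all genes, 0.742% higher and 2.04% lower. The median log2 fold change of the list was -0.35. The cardiomyocyte markers, with a median of -0.76, moved in the same direction, and their part in this result was not tested. asb2a.1, an adaptor of cullin ligases that targets filamins in mammalian muscle, was at 10.4 and 12.6 CPM in MT7 and at 41.5 and 44.7 CPM in TG7 (log2 fold change -1.91 ± 0.19 SE, edgeR adjusted p = 0.00108). klhl31, a Kelch protein of muscle, was at 158 and 201 CPM against 518 and 517 CPM (log2 fold change -1.53 ± 0.19 SE). trim63, the ligase MuRF1 of the sarcomere, was at 150 and 190 CPM against 393 and 444 CPM (log2 fold change -1.30 ± 0.16 SE). These 3 were called in all 4 fits with a library left out. The others were klhl38b, asb15a, asb18, kbtbd12, klhl34, asb14 and asb5b, at -0.71 to -4.42 on the log2 scale. The count was 10 without MT7 replicate 2, 4 without TG7 replicate 1 and 3 without MT7 replicate 1 or TG7 replicate 2. The lysine methyltransferases smyd2a and smyd2b, whose mammalian counterpart methylates the chaperone Hsp90 in muscle, fell from 96.5 and 110 to 25.5 and 30 CPM and from 44.9 and 49.7 to 10.2 and 8.4 CPM. Both are on no list and were picked after their values had been seen.

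None of 50 tested constitutive proteasome subunits was called by edgeR, DESeq2 or limma-voom (1 higher and 2 lower at an unadjusted p below 0.05), and their median log2 fold change was 0.07. psmb3, a subunit of the catalytic core, was at 46.4 and 45.5 CPM in MT7 and at 45 and 42.4 CPM in TG7 (log2 fold change 0.07 ± 0.10 SE). psmd7, of the regulatory lid, was at 31.1 and 36.7 CPM against 31.1 and 34.1 CPM (log2 fold change 0.06 ± 0.12 SE). Their levels in the 2 groups overlapped or nearly touched.

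The glycolysis genes that passed the edgeR test were all lower in the mutant. Of 44 tested, 0 were called higher and 6 lower (13.6% called, against 2.78% of all genes, 0.742% higher and 2.04% lower). DESeq2 called 2 higher and 8 lower, and limma-voom 1 higher and 6 lower. At an unadjusted p below 0.05, 6 were higher and 15 lower. slc2a1a, the glucose transporter Glut1, was at 1.12 and 1.61 CPM in MT7 and at 26.5 and 18.3 CPM in TG7, a 16.3-fold decrease (log2 fold change -4.03 ± 0.45 SE, edgeR adjusted p = 0.00221). pkmb, a pyruvate kinase, was at 8.28 and 6.03 CPM against 89.4 and 86 CPM (log2 fold change -3.61 ± 0.61 SE, edgeR adjusted p = 0.0146). gpib, a glucose-6-phosphate isomerase, was at 61.19 and 70.09 CPM against 217 and 261 CPM. gapdh (-1.20), aldoab (-1.01) and eno3 (-0.93), the abundant glycolytic enzymes of muscle, were the remaining 3. slc2a1a was called whichever library was left out, gpib in 1 of the 4 fits and pkmb in none, although the pkmb difference stayed between -3.86 and -3.40. The median of the list was -0.20 with all libraries, -0.003 without MT7 replicate 1 and -0.60 without MT7 replicate 2, and the count of lower genes was 7 without MT7 replicate 2 and 1 without any 1 of the other 3 libraries. Without MT7 replicate 1, 2 genes were called higher. The cardiomyocyte markers, with a median log2 fold change of -0.76, moved in the same direction as these enzymes, and their part in the result was not tested.

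In a list of 34 genes of glycogen turnover and glucose release, drawn up after values had been seen, 0 were higher and 3 lower (8.82% called, against 2.78% of all genes). g6pcb, a glucose-6-phosphatase catalytic subunit, was at 1.9 and 2.21 CPM in MT7 and at 57.1 and 45.6 CPM in TG7, a 24.85-fold decrease (log2 fold change -4.63 ± 0.29 SE, edgeR adjusted p = 0.000129). aglb, the glycogen debranching enzyme, was at 1.7 and 1.49 CPM against 16.9 and 17.4 CPM (log2 fold change -3.42 ± 0.32 SE). phka2, a regulatory subunit of phosphorylase kinase, fell by 1.15 on the log2 scale. g6pcb and aglb were called in all 4 fits with a library left out.

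Subunits of the ATP-sensitive potassium channel, which couples the energy state of muscle and endocrine cells to membrane potential, followed. Of the 4 tested, a list drawn up after values had been seen, 3 were called lower, against 2.04% of all genes. abcc8, the sulfonylurea receptor Sur1, was at 0.787 and 0.322 CPM in MT7 and at 5.81 and 7.28 CPM in TG7 (log2 fold change -3.55 ± 0.46 SE, edgeR adjusted p = 0.00416). kcnj11, the pore Kir6.2, was at 2.36 and 1.09 CPM against 11.6 and 8.96 CPM (log2 fold change -2.57 ± 0.43 SE), and abcc9, the receptor Sur2, at 42.3 and 58.9 CPM against 146 and 136 CPM (log2 fold change -1.48 ± 0.31 SE). The other pore gene, kcnj8, was at 0.952 and 1.41 CPM against 1.37 and 1.8 CPM and was not called. With a library left out, abcc8 was called in 4 of 4 fits, kcnj11 in 2 and abcc9 in 0. Of 30 genes in the list of calcium handling and ion channels, kcnj11 was the only one called (3.33%, near the 2.78% of all genes). Genes of these kinds outside the list were called too, among them abcc9 and atp1a3b (lower) and atp2b1a (higher, by 0.95 on the log2 scale).

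Among the lists, that of the endoplasmic reticulum (ER) held the most increases, a rank partly built in by how the list was made. It holds 81 ER chaperones, translocon, glycosylation and unfolded protein response genes, and was drawn up after the first values had been seen and with some of the called genes in view. Of these, 28 were higher and 2 lower (37% called, against 2.78% of all genes). Of the 81, 77 had a positive log2 fold change, and the median was 0.47 against -0.01 over all genes. hspa5, the ER chaperone BiP, was at 336 and 328 CPM in MT7 and at 148 and 160 CPM in TG7 (log2 fold change 1.11 ± 0.17 SE, edgeR adjusted p = 0.00949). hyou1, its nucleotide exchange factor, was at 88 and 86.8 CPM against 37.6 and 44.2 CPM (log2 fold change 1.09 ± 0.14 SE). hsp90b1, the ER Hsp90 known as Grp94, was at 344 and 394 CPM against 172 and 202 CPM (log2 fold change 0.98 ± 0.15 SE). In WT7 these 3 genes were at 167 and 203, 45.8 and 52.9, and 180 and 203 CPM, below MT7 in each case. With a library left out, hyou1 was called in 3 of 4 fits, hsp90b1 in 2 and hspa5 in 1.

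The raised ER genes span several steps of protein maturation. The lectin chaperones calr and canx were at 265 and 340 and at 264 and 302 CPM in MT7, against 159 and 176 and 168 and 173 CPM in TG7. The co-chaperones dnajb11 (1.14) and dnajc3a (0.91), the disulfide isomerase pdia4 (1.13), the stress-induced secreted proteins manf (0.96) and creld2 (1.13), the cargo receptor lman1 (1.02) and the translocon parts sec61al2 (0.93), tram1 (0.69) and ssr3 (0.61) were all higher, these values being log2 fold changes. xbp1, a transcription factor of the unfolded protein response, was at 186 and 190 CPM against 139 and 123 CPM (log2 fold change 0.52 ± 0.12 SE, edgeR adjusted p = 0.0467). The exceptions were derl3, of ER-associated degradation (-0.86), and cdnf, a relative of manf, at 6.67 and 6.15 CPM in MT7 against 11.05 and 14.5 CPM in TG7. The count of ER genes called higher was 12 without MT7 replicate 1, 15 without MT7 replicate 2, 0 without TG7 replicate 1 and 2 without TG7 replicate 2. The median log2 fold change of the list in these fits stayed between 0.43 and 0.49, and DESeq2 called 33 of its genes higher and limma-voom 29. Of 43 tested heat shock proteins and chaperones, 2 were higher, hspa5 and hsp90b1, and 3 lower (11.6% called, against 2.78% of all genes). The cytosolic chaperonin subunits cct5 and cct6a were lower, at -0.56 and -0.52, and so was hspb2, a small heat shock protein of muscle, at -1.01 on the log2 scale. With a library left out, hspb2 was called in 1 of 4 fits and cct5 and cct6a in 0, and DESeq2 did not call cct6a.

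**Figure D3:**
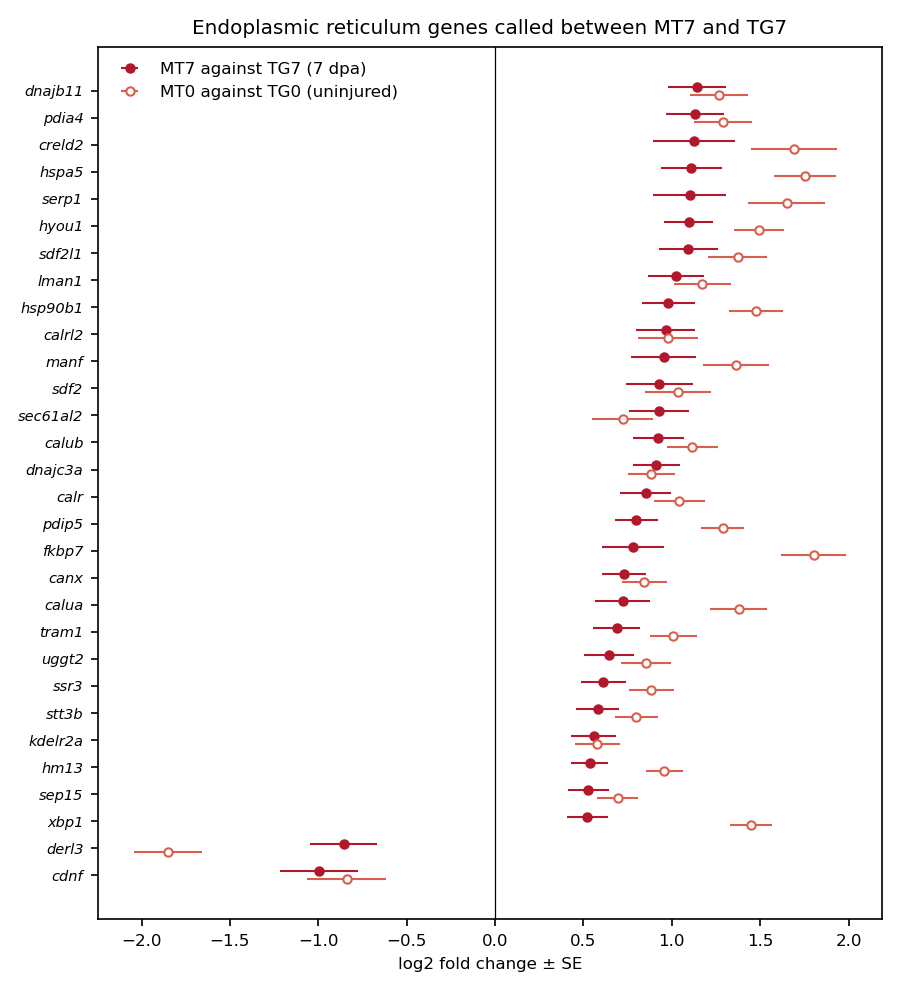
Log2 fold changes with their standard errors of the 30 endoplasmic reticulum genes called between MT7 and TG7 (filled circles), with the difference of the same genes between the uninjured groups MT0 and TG0 (open circles). All but derl3 and cdnf lie to the right of 0 in both comparisons, and for most genes the uninjured difference is the larger.

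In a list of 109 nucleolar and ribosome biogenesis genes, drawn up after values had been seen, 0 were higher and 10 lower. This was 9.17% called, against 2.78% of all genes, 0.742% higher and 2.04% lower. The median log2 fold change of the list was -0.07. ddx54, an RNA helicase of the nucleolus, was at 28 and 28.4 CPM in MT7 and at 72.6 and 91 CPM in TG7 (log2 fold change -1.54 ± 0.19 SE, edgeR adjusted p = 0.00372) and was called whichever library was left out. gtpbp4, ddx21 and sdad1 fell by 0.64, 0.65 and 0.67 on the log2 scale. The count was 3 without MT7 replicate 1, 2 without MT7 replicate 2, 1 without TG7 replicate 1 and 2 without TG7 replicate 2. None of the 78 tested proteins of the cytosolic ribosome was called by edgeR (0 higher and 7 lower at an unadjusted p below 0.05, 1 lower by DESeq2, 0 by limma-voom).

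Few genes of the wound environment were called. Of 66 tested matrix genes, 0 were higher and 2 lower (3.03% called, close to the 2.78% of all genes), fbln2 and emilin1a, at -0.75 and -0.59 on the log2 scale. Their median was -0.02. vcana, a versican of the early cardiac matrix, was at 12.8 and 10.5 CPM against 4.56 and 2.86 CPM and was not called (log2 fold change 1.66 ± 0.71 SE, edgeR adjusted p = 0.277). itga10, an integrin subunit that binds collagen, was at 0.538 and 2.17 CPM against 19.5 and 15.2 CPM, the only call among 25 integrins (4%). Of 38 endothelial and endocardial genes, only vwf, the von Willebrand factor, was called (2.63%, near the share of all genes), at 553 and 607 CPM against 327 and 326 CPM.

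The epicardial list had 1 gene higher and 1 lower of 29 tested (6.9% called, against 2.78% of all genes). twist1b, a transcription factor of mesenchymal cells, was at 32.3 and 35.2 CPM in MT7 and at 14.5 and 13.1 CPM in TG7 (log2 fold change 1.29 ± 0.28 SE, edgeR adjusted p = 0.0431). sema3d, a secreted guidance protein, was at 15.6 and 11.9 CPM against 23.6 and 26.9 CPM. tcf21, the defining epicardial factor, was at 51.5 and 46 CPM against 56.7 and 49.7 CPM (log2 fold change -0.13 ± 0.14 SE). twist1b, sema3d, vwf, fbln2 and emilin1a were each called in at most 1 of the 4 fits with a library left out.

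The red blood cell list had 0 genes higher and 5 lower of 21 tested (23.8% called, against 2.78% of all genes, 0.742% higher and 2.04% lower). Of its 21 log2 fold changes, 20 were negative, with a median of -0.74. slc4a1a, the anion exchanger of the red cell membrane, was at 278 and 181 CPM in MT7 and at 540 and 583 CPM in TG7 (log2 fold change -1.29 ± 0.27 SE). In WT7 it was at 151 and 189 CPM, overlapping MT7 and below both TG7 libraries. Over the list the median log2 fold change of MT7 against WT7, which share MT7 with the comparison above, was 0.10, with 2 genes called higher and 2 lower, and TG7 against WT7 had 5 called higher and 0 lower. The globin sums given above moved in the same direction, and the part of blood content in this result was not tested. The count was 3 without MT7 replicate 1, 1 without MT7 replicate 2, 0 without TG7 replicate 1 and 1 without TG7 replicate 2. Of 40 tested chemokine and inflammation genes, 1 was higher and 1 lower (5% called, against 2.78% of all genes), with 34 of 40 log2 fold changes positive. csf1a, a macrophage growth factor, was at 25.2 and 22.4 CPM against 6.95 and 10 CPM (log2 fold change 1.48 ± 0.24 SE, edgeR adjusted p = 0.0117) and was called in 1 of the 4 fits with a library left out. csf3, the growth factor of granulocytes, was at 0.248 and 0.603 CPM against 5.01 and 4.54 CPM (log2 fold change -3.46 ± 0.43 SE, edgeR adjusted p = 0.00361) and was called in all 4. The neutrophil and lymphocyte list of 24 had a median of 0.95 with 0 called by edgeR, DESeq2 and limma-voom (4 higher and 0 lower at an unadjusted p below 0.05); its levels were low and its replicates far apart, mpx being at 7.78 and 15 CPM in MT7 and at 8.71 and 2.99 CPM in TG7.

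Of 46 replication genes and 69 mitosis and cytokinesis genes, none was called by edgeR or limma-voom with all libraries. DESeq2 called 1 and 0, and 2 and 3 were higher and 0 and 0 lower at an unadjusted p below 0.05. Over all 19014 genes, 1399 were higher and 1753 lower at that threshold. The medians of the 2 lists were 0.21 and 0.14, and their sign turned with 1 library: they were -0.06 and -0.30 without MT7 replicate 1 and 0.45 and 0.42 without MT7 replicate 2, where edgeR called 2 and 3 genes higher. ect2, a guanine nucleotide exchange factor of cytokinesis, was at 9.94 and 3.94 CPM in MT7 and at 6.15 and 4.99 CPM in TG7, with the 2 mutant libraries on either side of the controls (log2 fold change 0.32 ± 0.44 SE). The p53 and inhibitor list had 1 called gene of 36 tested (2.78%, the same share as over all genes). It was cdkn1c, a cyclin-dependent kinase inhibitor, at 0.373 and 0.764 CPM against 2.45 and 4.83 CPM (log2 fold change -2.67 ± 0.45 SE). No gene of the 25 cardiac transcription factors and 19 chamber identity genes was called by edgeR or limma-voom. DESeq2 called 1 factor higher and 4 chamber genes lower, and 3 factors were higher, 1 factor lower and 5 chamber genes lower at an unadjusted p below 0.05.

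The mitochondrial lists had negative medians and no gene that passed. The median log2 fold change was -0.28 for 51 subunits of complex I and the ATP synthase (47 of them negative), -0.23 for 27 of complexes III and IV, -0.28 for 55 enzymes of the TCA cycle and fatty acid oxidation, and -0.28 for 69 mitochondrial ribosomal proteins (65 negative). None of these was called by edgeR or limma-voom; DESeq2 called 2 TCA cycle and fatty acid oxidation genes and 1 mitochondrial ribosomal gene lower. At an unadjusted p below 0.05, 4, 0, 8 and 18 members were lower and 0, 0, 1 and 0 higher, against the 1753 lower and 1399 higher of all 19014 genes. Without MT7 replicate 1 the medians of the first 3 lists were -0.07, 0.02 and -0.06, and without MT7 replicate 2 they were -0.50, -0.48 and -0.55. That of the mitochondrial ribosomal proteins was -0.19 and -0.40. The summed level of the complex I and ATP synthase genes was 14149 and 20260 CPM in MT7 and 20589 and 22580 CPM in TG7, so MT7 replicate 1 was the low library and MT7 replicate 2 nearly reached the controls. The cardiomyocyte markers, with a median log2 fold change of -0.76, were lower too, and their part in these medians was not tested.

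Several of the largest differences fell outside these lists. adra2b, an alpha-2 adrenergic receptor, was at 0.414 and 0.241 CPM in MT7 and at 10.6 and 10.3 CPM in TG7, a 31.5-fold decrease (log2 fold change -4.98 ± 0.34 SE, edgeR adjusted p = 0.000129). sult2st1, a steroid sulfotransferase, was at 1.78 and 4.42 CPM against 45 and 67.1 CPM, and cplx2l, a complexin of vesicle fusion, at 0.455 and 1.53 CPM against 9.62 and 24.3 CPM. fhl2b, a LIM protein of muscle, fell less, by 2.39 on the log2 scale, and belongs to a list. It was the only call among 28 tested YAP and stretch response genes (3.57%, near the 2.78% of all genes), at 5.01 and 5.95 CPM against 31.4 and 26.3 CPM. In the other direction, tymp, thymidine phosphorylase, was at 46.3 and 33.1 CPM against 3.13 and 3.68 CPM (log2 fold change 3.53 ± 0.35 SE, edgeR adjusted p = 0.00108). tox, a high mobility group box factor, was at 73.5 and 155 CPM against 15.3 and 17 CPM. adcy2a, an adenylate cyclase, was at 8.86 and 12.7 CPM against 0.968 and 1.64 CPM, and ankrd24, which encodes an ankyrin repeat protein, was at 7.29 and 12.4 CPM against 0.456 and 0.941 CPM.

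Some genes had no reads in the mutant. smim1, a red cell membrane protein, had 0 reads in both MT7 libraries and 12.2 and 4.38 CPM in TG7, which makes it at least 67.9-fold lower against a floor of 3 reads per library. mhc2dab, a class II major histocompatibility gene, also had 0 reads in both MT7 libraries and 2.33 and 11.9 CPM in TG7, at least 58.3-fold lower against the same floor. Neither had a read in MT0. smim1 was expressed in WT7 at 13.1 and 10.7 CPM, whereas mhc2dab was at 0.0485 and 0 CPM there, so that for mhc2dab the transgenic controls, not the mutants, stood apart from injured wild-type fish. Class II genes share sequence and vary between fish, so the counts of mhc2dab are uncertain.

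Most of the genes called at 7 dpa differed in the same direction before injury. MT0 and TG0 share no library with MT7 and TG7, and between them 3960 genes were called (20.8% of those tested), 2169 higher (11.4%) and 1791 lower (9.42%) in the uninjured mutant. Of the 141 genes higher in MT7, 136 had the same sign and 116 (82.3%) were also called higher in MT0, and of the 387 lower, 369 had the same sign and 300 (77.5%) were also called lower. Seen from the other side, the 116 are 5.35% of the genes called higher in MT0 and the 300 are 16.8% of those called lower. The genes called higher in MT0 had a median log2 fold change of 1.26 there and of 0.34 between MT7 and TG7, and those called lower had -1.13 and -0.44. The numbers of calls, 528 at 7 dpa and 3960 without injury, come from the same model, and a median over genes chosen in 1 comparison favours that comparison.

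**Figure D4:**
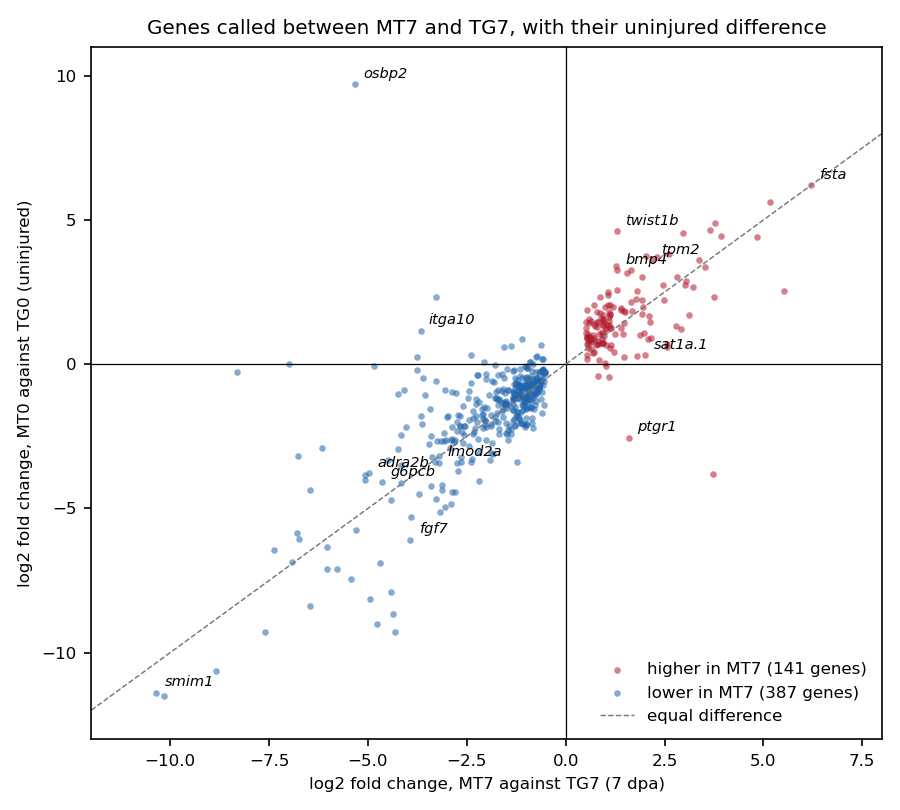
Log2 fold change of the 528 genes called between MT7 and TG7 (x axis) and of the same genes between MT0 and TG0 (y axis), red for higher and blue for lower in MT7; the dashed line marks equal differences. Nearly all points lie to the lower left or upper right of the origin, and osbp2, itga10 and ptgr1 are among those that do not.

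Lists differed in how their medians compared between the injured and uninjured groups. The median of the ER list was 0.47 in the injured and 0.69 in the uninjured comparison, that of the ubiquitin ligase adaptors -0.35 and -0.69, and that of the sarcomere list -0.54 and -0.20. The matrix list had a median of -0.02 after injury and of 1.05 without it, where 36 of the 66 genes were called higher in the mutant and 1 lower. The change of that difference with injury was called for 13 of the 66 genes. The amino acid and integrated stress response list moved from 0.96 to 0.15, and chemokines and inflammation from 1.70 to 0.61.

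The difference between the 2 comparisons was tested gene by gene as an interaction, the MT7 minus TG7 difference less the MT0 minus TG0 difference, and 268 genes were called (1.41% of those tested). Of the 66 with a positive value, 63 were called lower in MT0 than in TG0, and of the 202 with a negative value, 194 were called higher in MT0. Between MT7 and TG7, 12 of the 66 (18.2%) and 24 of the 202 (11.9%) were called, against 2.78% of all genes. The interaction contains both differences, so overlaps of its 268 genes with either comparison are partly built in. The number was 17 without TG7 replicate 1, 13 without TG7 replicate 2, 64 without MT7 replicate 1 and 203 without MT7 replicate 2. Leaving out an uninjured library gave 294 (MT0 replicate 1), 78 (MT0 replicate 2), 46 (TG0 replicate 1) and 39 (TG0 replicate 2).

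Among the genes with the smallest p-values of the interaction, prkacbb, a catalytic subunit of protein kinase A, was at 0.0565 and 0.0898 CPM in MT0 and at 22.4 and 11.8 CPM in TG0, but at 13.3 and 13.4 CPM in MT7 and 12.8 and 16.2 CPM in TG7. The injured groups overlapped. slc20a1b, a phosphate transporter, was at 211 and 218 CPM in MT0 and 21.6 and 19.8 CPM in TG0, and at 86.8 and 74 CPM in MT7 and 65.5 and 48.5 CPM in TG7. loxl2a, a lysyl oxidase that crosslinks collagen, was at 39.91 and 40.17 CPM in MT0 and 1.16 and 1.76 CPM in TG0, and at 21.6 and 28 CPM in MT7 and 21.4 and 24.8 CPM in TG7. tbx1, a T-box factor of the second heart field, and cilp2, a matrix protein, behaved likewise, with differences of 3.62 and 5.50 on the log2 scale without injury and of -0.26 and 0.43 with it.

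Of the 12 interaction genes named, ptgr1 and sat1a.1 were the ones called higher in MT7. ptgr1, prostaglandin reductase 1, was at 41.9 and 55.5 CPM in MT7 and at 15.5 and 16.7 CPM in TG7 (log2 fold change 1.59 ± 0.24 SE), whereas MT0 was low, at 16.7 and 13.9 CPM, and TG0 high, at 107 and 72 CPM. Its direction turned with injury. sat1a.1, spermidine/spermine acetyltransferase, which starts the breakdown of polyamines, was at 49.5 and 53.2 CPM in MT7 and at 11.2 and 14.1 CPM in TG7, a 4.04-fold increase (log2 fold change 2.02 ± 0.16 SE, edgeR adjusted p = 0.00034). In the uninjured groups it was at 17.9 and 20.7 CPM in MT0 and at 14.4 and 16.6 CPM in TG0. It was called at 7 dpa whichever library was left out.

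**Figure D5:**
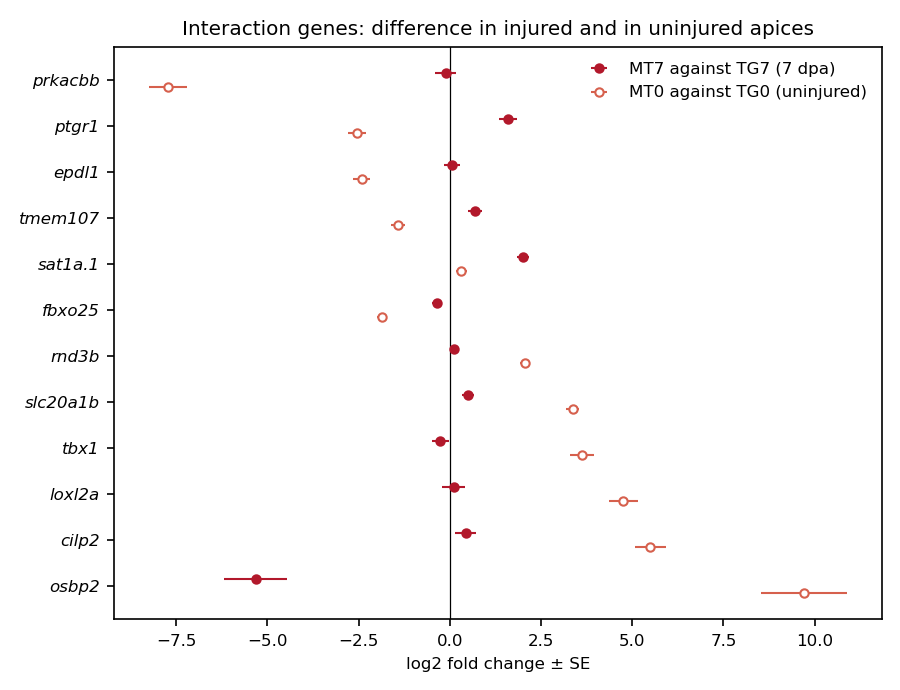
Log2 fold changes with their standard errors of the 12 genes named for the interaction, between MT7 and TG7 (filled circles) and between MT0 and TG0 (open circles). For 9 of the 12 the injured difference lies within 1 of 0 while the uninjured one lies beyond 1 in size; ptgr1, sat1a.1 and osbp2 are the exceptions.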

How the data were processed

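RNA came from pools of 6 ventricular apices per library. Per the study's methods and the labels, the authors aligned single-end reads to GRCz10 with STAR and counted them per gene with featureCounts, and the deposited files hold these raw counts with gene symbols only. Whether counting used strand is not given in the sources used here, so overlapping genes and close paralogs are uncertain. Depth was 16732382 to 24544150 reads in the 4 compared libraries.

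Genes passed edgeR's filterByExpr (minimum count 10, minimum total 15), and all 12 libraries were fitted with a mean per group, TMM scaling and edgeR's quasi-likelihood test (edgeR 4.0.16, R 4.3.3), with Benjamini-Hochberg adjustment over all 19014 genes. A gene was called at an adjusted p below 0.05 and an absolute log2 fold change above 0.5; the standard error is the fold change divided by the root of F. With 2 pools a group, p-values measure the spread between pools. The study used DESeq2. DESeq2 1.42.0, limma-voom (limma 3.58.1), RLE scaling, no filter, smaller sets of libraries, a replicate block and leaving out each library were alternatives. On simulated counts for this comparison (18326 genes), 19.4%, 86.6% and 100% of genes changed by 1, 2 and 3 log2 units were called, with 5 unchanged genes called. The simulation gave every gene and group the same biological coefficient of variation, whereas the groups of this series differed in it.

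The genes named were the 12 largest rises and falls among called genes averaging log2 CPM 1 or more, provisional names left out, up to 3 genes per list and direction, 10 listed genes, and 6 interaction genes per direction. The comparison and 35 gene lists (1542 of 1633 symbols matched, 67 through a synonym) were chosen with earlier results of these data known, and 6 lists were added after values had been seen; further list members, etv5b, smyd2a and smyd2b were also named after that. Sequences were not analysed here. 1 called gene is not reported here.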

Additional observations from a re-analysis of the deposited data

Results flagged for a closer look

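The named genes whose MT minus TG difference changed with injury by edgeR's interaction test are given here as the injured less the uninjured log2 difference, with 2 libraries a group and an adjusted p below 0.05. The value was positive for prkacbb (7.60), ptgr1 (4.14), epdl1 (2.48), tmem107 (2.12), sat1a.1 (1.70), fbxo25 (1.51), asb2a.1 (1.43) and vwf (1.25). It was negative for osbp2 (-15.03), cilp2 (-5.07), itga10 (-4.83), loxl2a (-4.65), tbx1 (-3.88), twist1b (-3.32), slc20a1b (-2.87), synpo2la (-2.70), si:ch211-5k11.6 (-2.03), bmp4 (-1.97), rnd3b (-1.95), tpm2 (-1.42) and xbp1 (-0.93). The osbp2 value depends on the prior count, since the gene had 0 reads in both TG0 libraries and 5.03 and 5.52 CPM in MT0, against 1.31 and 2.41 CPM in TG7 and at most 0.0828 CPM in MT7. bmp4, tpm2, twist1b and xbp1 were higher and asb2a.1 lower in the mutant in both states, with a smaller difference at 7 dpa. vwf was called higher at 7 dpa (0.83), where the uninjured difference was -0.42, and itga10 was called lower at 7 dpa (-3.67), where the uninjured difference was 1.16.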

How the results depend on the processing

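Calls moved with the test and with single libraries. Each of the 528 genes that an alternative tested kept its sign. As both MT7 libraries lay beyond both TG7 libraries for all 528, leaving out a library could not turn it. DESeq2 gave 418 genes higher and 663 lower and 902 interactions, with 38.7% of calls higher against 26.7%, and a fit of the 6 injured libraries gave 328 and 622. With 1 library left out the counts ranged from 11 to 340 higher, from 96 to 327 lower and, for the interaction, from 13 to 294. Of the 340, 164 are among the 19014 genes of the full fit. Fits that leave 1 library in a group assume that it varies like the others. RLE scaling, limma-voom and no filter stayed within 1.5 times of each count. The replicate block gave 114 higher, 309 lower and 181 interactions. Same-numbered libraries did not deviate together across genes (correlation -0.0387 for MT7 and TG7, 0.0651 for MT0 and TG0). The labels do not say what the replicate numbers stand for, so whether same-numbered libraries were handled together is unknown. Of the 114 named genes called, 91 were called with the block, 113 with DESeq2, 106 with limma-voom, 73 in the 4 compared libraries alone, and 30 to 72 with a library left out. On simulated counts that gave every gene the same biological coefficient of variation, 19.4% of 2-fold changes were called. This share need not hold for genes that vary less. In the data, 82 of the 141 higher and 282 of the 387 lower genes differed by more than 2-fold, so smaller changes were called too.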

Other observations

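Some called genes outside the lists concern the cardiomyocyte nucleus, conduction and membrane, and were picked after their values had been seen. For those lower in MT7, the part of the lower cardiomyocyte markers (median log2 fold change -0.76) was not tested. rbm20, a splicing regulator of titin, was at 19.3 and 28.6 CPM in MT7 and at 52.5 and 65.2 CPM in TG7. lrrc10, a leucine-rich repeat protein of heart muscle, was at 20.5 and 37.6 CPM against 79.8 and 78 CPM, and cx45.6, a gap junction protein, was at 32.2 and 34.6 CPM against 74.1 and 86.4 CPM. atp1a3b, a sodium pump subunit, was at 82.8 and 131 CPM against 852 and 1106 CPM (log2 fold change -3.19 ± 0.33 SE, edgeR adjusted p = 0.00149). prox1a, a homeodomain factor of muscle and lymphatic cells, was at 63.1 and 91.1 CPM against 141 and 147 CPM, and its uninjured difference was 0.06 on the log2 scale. Its call was lost with RLE scaling, with the replicate block and with the 4 compared libraries alone. With a library left out, atp1a3b was called in all 4 fits and rbm20, lrrc10, cx45.6 and prox1a in 1. Higher in the mutant were lmcd1, a LIM protein (54.7 and 60.8 against 14.6 and 15.5 CPM), mapkapk3, a kinase below p38 (127 and 154 against 39.3 and 41.1 CPM), and oxct1a, the enzyme that starts ketone body use (7.7 and 6.39 against 1.42 and 1.39 CPM).

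Genes were also ordered along the chromosome of nkx2.5 by the RefSeq annotation of GRCz12tu, a later assembly than the one used for counting, in which 15173 tested genes could be placed. Of the 200 tested genes nearest to nkx2.5, 100 on each side, 13 (6.5%) were called between MT7 and TG7 against 2.82% of all placed genes, and of the nearest 50, 1 (2%) was called. Between MT0 and TG0, 50 of the same 200 genes (25%), 28 of the nearest 100 (28%) and 16 of the nearest 50 (32%) were called, against 21.4% of all placed genes. For MT7 and TG7, 5 of the nearest 100 (5%) were called. What lies behind these shares was not tested.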
